A study of Mus musculus with 8 samples.

Results

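Aminoacyl-tRNA synthetases join each amino acid to its transfer RNA, and their transcripts were compared here between the ileum of Slc51a knockout mice and that of wild-type mice. The members were chosen by name, from a list of genes for cytosolic enzymes and of genes for mitochondrial enzymes, whose symbols end in 2. Of the 36 genes listed, 32 were measured among 17097 genes in all. These were 17 of 20 cytosolic and 15 of 16 mitochondrial synthetases, while Cars, Dars, Tars and Yars2 were not analysed here. Where several probe sets carried only that gene's symbol, the brightest on average stood for the gene.

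Knockout samples came from 4 male mice in which Slc51a was inactivated, and wild-type samples from 4 male mice. Slc51a encodes a subunit of the basolateral carrier through which bile acids leave the enterocyte. Both genotypes were on a C57BL/6 background and were studied at about 2 months of age, after 4 h without food, with the ileum taken under ketamine-xylazine anaesthesia. How the allele was made and whether littermates were used are not given in the sources used here. RNA of each animal was hybridised to an Affymetrix array whose probes lie near the 3' end of transcripts. Values are log2 signals after RMA normalisation, so that 1 unit is a doubling. The samples are numbered biological replicates, and p-values set the genotype difference against the spread between them. They do not cover anything else that ran with genotype.

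Cells keep a pair of protein synthesis machines, one in the cytosol and one in the mitochondrion, and each needs its own charged transfer RNAs. Most amino acids therefore have a cytosolic enzyme and a separate mitochondrial enzyme, both encoded in the nucleus. Several cytosolic enzymes are held together with scaffold proteins in the multisynthetase complex. Many cytosolic synthetase genes are known targets of ATF4, the transcription factor that acts when amino acids are short.

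The Slc51a signal was 4.50 to 4.68 on knockout arrays and 11.29 to 11.41 on wild-type arrays. Array medians ran between 4.56 and 4.60, and the median of all probe sets was 4.58. Of the ileal markers, Fabp6, Slc10a2, Vil1, Cdx2 and Cdh17 all lay well above that median in both genotypes. The remaining marker, Fgf15, also lay above it but varied widely, from 6.37 to 8.17 over the arrays. Mature enterocyte genes were lower in the knockout for 9 of 9 measured markers, with a mean log2 level of 9.43 to 9.67 on knockout arrays and 10.47 to 10.70 on wild-type arrays. Smooth muscle genes were lower for 10 of 10, at 8.33 to 8.59 on knockout arrays and 9.10 to 9.51 on wild-type arrays. T lymphocyte genes were lower for 9 of 10, at 5.48 to 5.75 on knockout arrays and 6.77 to 6.91 on wild-type arrays. Of 13 crypt and proliferation genes, 8 rose and 2 fell. Their mean level was 8.19 to 8.39 on knockout arrays and 7.95 to 8.06 on wild-type arrays. The 8 that rose were Mki67, Top2a, Ccnb2, Bub1, Birc5, Mcm5, Mcm6 and Pcna. Lgr5 fell by 0.31 and Olfm4 by 0.18, and Ascl2 differed by -0.19 and did not pass, so the list did not move as 1. Of 7 B lymphocyte and plasma cell genes 3 were lower, and of 6 ileal enterocyte genes 2, Slc10a2 and Vil1, were lower. The other 4 ileal genes did not pass, with Fabp6 and Fgf15 at 0.07 and 0.54 and Cdx2 and Cdh17 at -0.14 and -0.12. Of all 17097 genes, 12.9% were called lower and 17.1% higher. The lists thus moved with genotype to unequal extents, and their part in the results below was not tested. Fewer cells of a type and less RNA per cell cannot be told apart in whole tissue.

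Synthetase transcripts were higher in the knockout by modest amounts, and none was called lower. Of 17 cytosolic synthetases, 14 rose, 0 fell and 3 did not pass an adjusted p of 0.05 (limma, Benjamini-Hochberg over all genes). Of 15 mitochondrial synthetases, 9 rose, 0 fell and 6 did not pass. Over all 17097 genes, 17.1% were called higher and 12.9% lower. Among the genes whose mean was at or above the median of all probe sets, refitted alone, 26.5% were called higher, and 14 cytosolic and 9 mitochondrial synthetases were again among them. The median difference, knockout minus wild type, was 0.35 on the log2 scale for cytosolic and 0.25 for mitochondrial synthetases, and 0.01 for all genes. The largest difference was 0.64, a 1.56-fold higher signal, and the lowest was -0.05. At an unadjusted p of 0.05 in the same limma fit, 0 cytosolic and 0 mitochondrial members were lower and 15 and 10 were higher.

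Every knockout array lay above every wild-type array for 14 cytosolic and 9 mitochondrial synthetases, against 18.0% of all genes. The mean log2 level of the 17 cytosolic members was 8.37, 8.34, 8.33 and 8.54 on the knockout arrays and 8.11, 8.07, 8.0 and 8.12 on the wild-type arrays. That of the 15 mitochondrial members was 6.19, 6.24, 6.21 and 6.25 on the knockout arrays and 5.96, 5.89, 5.92 and 5.96 on the wild-type arrays. Both means were thus higher on each knockout array than on any wild-type array.

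**Figure D1:**
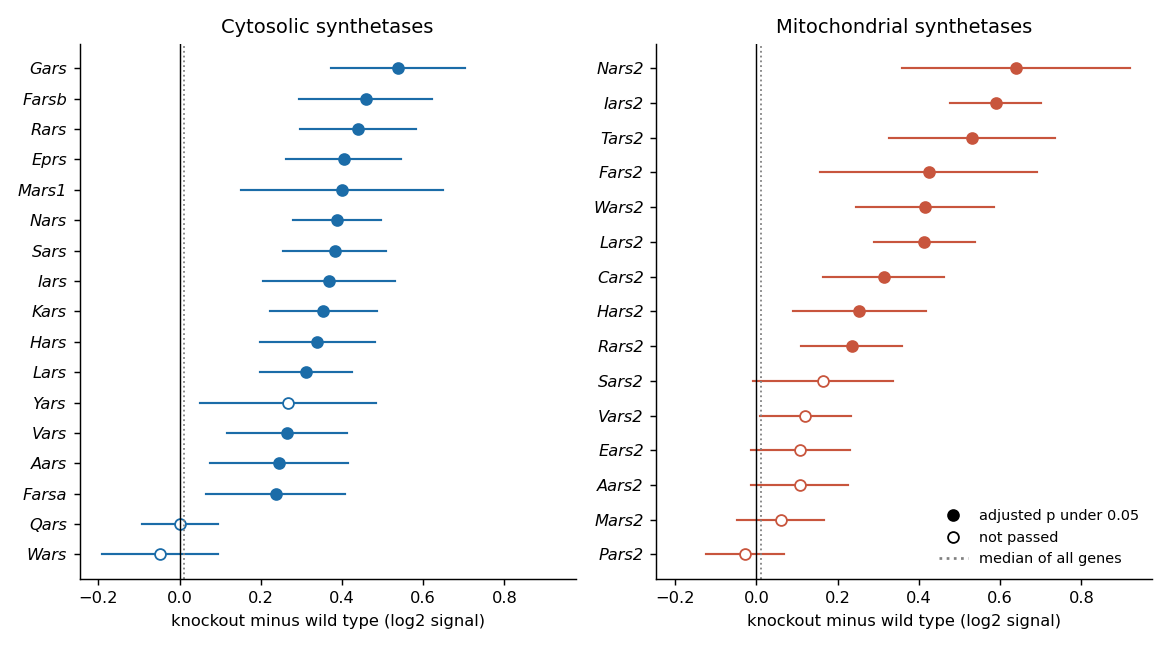
Difference in log2 signal, knockout minus wild type, for the 17 cytosolic (left) and 15 mitochondrial (right) synthetases, with 95% confidence intervals of the limma fit (n = 4 per genotype). Filled points passed an adjusted p of 0.05, and the dotted line is the median of all genes, 0.01. Filled points run from 0.24 (Farsa) to 0.54 (Gars) on the left and from 0.23 (Rars2) to 0.64 (Nars2) on the right.

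Enzymes of the multisynthetase complex rose in 6 of 7 measured members, with a median difference of 0.37. Of all genes 17.1% were called higher, and of the brighter genes 26.5%. Rars, which charges arginine transfer RNA, was at 9.88, 9.74, 9.83 and 9.95 in knockout ileum and at 9.56, 9.37, 9.30 and 9.42 in wild-type ileum. The groups did not overlap, and Rars rose by 0.44 (SE 0.07, limma adjusted p = 0.000446). Eprs encodes the fused enzyme for glutamate and proline. Its signal was 8.73, 8.85, 8.84 and 9.0 in the knockout and 8.49, 8.39, 8.38 and 8.53 in wild type, a rise of 0.40 (SE 0.06, adjusted p = 0.000675). Mars1 encodes the methionine enzyme, which also charges the initiator transfer RNA. It stood at 7.93, 7.74, 7.74 and 8.15 in the knockout and 7.72, 7.51, 7.22 and 7.51 in wild type, where the lowest knockout and the highest wild-type arrays nearly met. Mars1 rose by 0.40 with the largest error among the cytosolic members (SE 0.11, adjusted p = 0.0192).

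Iars, for isoleucine, was at 8.72, 8.70, 8.77 and 8.96 in the knockout and at 8.42, 8.38, 8.31 and 8.58 in wild type, a rise of 0.37 (SE 0.07, limma adjusted p = 0.00283). Kars encodes both the cytosolic and the mitochondrial lysine enzyme through alternative splicing, so its signal could not be assigned to either compartment. It was at 8.70, 8.70, 8.69 and 8.81 in the knockout and at 8.53, 8.34, 8.29 and 8.33 in wild type, and rose by 0.35 (SE 0.06, adjusted p = 0.00100). Knockout replicate 4 stood above the other knockout arrays, which lay close together. Lars, the leucine enzyme, which also senses leucine for mTORC1 in human cells, rose by 0.31 (SE 0.05, adjusted p = 0.000831).

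The glutamine enzyme gene Qars did not pass at its brightest probe set. That probe set, 1456726_PM_x_at, averaged 10.62 ± 0.03 in the knockout and 10.61 ± 0.03 in wild type (SD, n = 4), a difference of 0.00 with a 95% interval from -0.09 to 0.09 (limma adjusted p = 0.994). Its suffix marks probes that may bind other transcripts. Another probe set of Qars, 1423712_PM_a_at, averaged 9.39 in the knockout and 9.16 in wild type and was called higher by 0.23 (SE 0.06, adjusted p = 0.0123 over all probe sets). The other 2 probe sets of Qars differed by 0.05 and -0.05 and did not pass. The call of this gene thus depends on which probe set stands for it.

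Outside the complex, 8 of 10 measured cytosolic genes rose, with a median difference of 0.30, beside 6 of 7 within it. The shares of all genes and of the brighter genes called higher were 17.1% and 26.5%. A difference between members in and outside the complex was not tested. Gars, the glycine enzyme, serves the cytosol and the mitochondrion from 1 gene and had the largest difference of the cytosolic set. It was at 9.93, 9.75, 9.80 and 9.97 in the knockout and at 9.45, 9.30, 9.16 and 9.40 in wild type. Gars rose by 0.54 (SE 0.07, limma adjusted p = 0.000278), which is a 1.45-fold higher signal.

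Farsb and Farsa encode the beta and alpha subunits of the cytosolic phenylalanine enzyme, which works as a heterotetramer. Farsb was at 8.75, 8.73, 8.63 and 8.99 in the knockout and at 8.31, 8.32, 8.24 and 8.39 in wild type, a rise of 0.46 (SE 0.07, limma adjusted p = 0.000771). Farsa rose by 0.24 (SE 0.08, adjusted p = 0.0394). Its call was the weakest of the 14: on leaving out 1 array it was lost without knockout replicates 2 and 4 and without each of the 4 wild-type replicates, at adjusted p from 0.0514 to 0.102. With the mean of its 3 probe sets the Farsa difference was 0.04 (adjusted p = 0.613).

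Nars, for asparagine, was at 10.95, 10.94, 10.82 and 10.95 in the knockout and at 10.58, 10.49, 10.49 and 10.55 in wild type. It rose by 0.39 (SE 0.05, limma adjusted p = 0.000160), and its second probe set was called higher by 0.53. Sars, the serine enzyme, which also supplies the transfer RNA for selenocysteine, was at 8.67, 8.59, 8.59 and 8.82 in the knockout and at 8.27, 8.27, 8.31 and 8.30 in wild type, a rise of 0.38 (SE 0.06, adjusted p = 0.000469). The wild-type arrays of Sars lay within a narrow band, with an SD of 0.02 against 0.11 in the knockout. The histidine enzyme Hars rose by 0.34 and the valine enzyme Vars by 0.26 (adjusted p = 0.00203 and 0.0115). Aars, the alanine enzyme, rose by 0.24 (SE 0.08, adjusted p = 0.0338), and this call was lost without knockout replicates 1 and 4 and without wild-type replicates 2 and 3, at adjusted p from 0.0676 to 0.0967. Yars, the tyrosine enzyme, differed by 0.27 with overlapping groups and did not pass (SE 0.10, adjusted p = 0.0645). It passed without knockout replicate 2 (adjusted p = 0.0377).

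Wars, the tryptophan enzyme, was the single cytosolic member with a negative difference. It was at 7.11, 7.0, 6.88 and 7.14 in the knockout and at 7.13, 7.0, 7.06 and 7.14 in wild type, and the groups overlapped almost wholly. Its difference was -0.05 with a 95% interval from -0.19 to 0.09 (limma adjusted p = 0.645). The probe set used, 1437832_PM_x_at, carries the suffix for possible binding to other transcripts. The other 2 probe sets of Wars differed by -0.12 and 0.08 and did not pass. In human cells this gene is known to be induced by interferon gamma, unlike the other synthetases. In the same samples 13 of 14 measured interferon-gamma-induced genes fell, 0 rose and 1 did not pass. Of all genes, 12.9% were called lower. The median difference of the 14 was -0.80. Among them the tapasin gene Tapbp, the immunoproteasome subunit Psmb8, the chemokine Cxcl9 and Ciita, the class II transactivator, changed by -0.88, -1.29, -1.47 and -0.79, the knockout mean of Ciita lying below the median of all probe sets. The part of that shift in the Wars values was not tested.

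**Figure D2:**
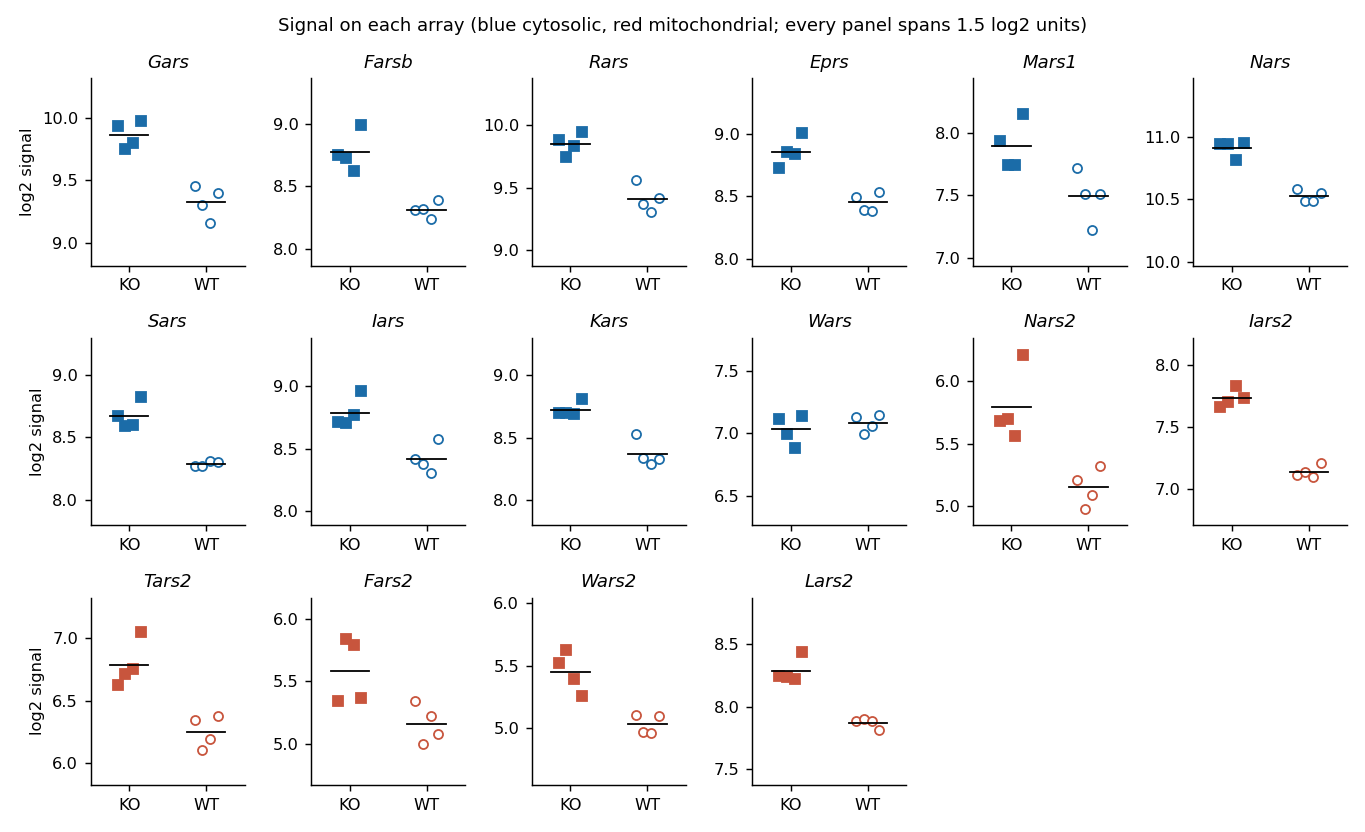
Log2 signal on each of the 4 knockout (KO, filled) and 4 wild-type (WT, open) arrays for 16 synthetases, cytosolic in blue and mitochondrial in red, with a bar at each mean. All panels span 1.5 log2 units, so heights compare directly. KO and WT points are apart in every panel except Wars and, at 1 array each, Fars2.

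Synthetases fall into 2 unrelated structural classes with different catalytic folds. Among the cytosolic genes, 8 of 8 of class II rose (median 0.37) and 5 of 8 of class I (median 0.29), Eprs holding a domain of each. Of all genes 17.1% were called higher, and of the brighter genes 26.5%. Qars, Yars and Wars of class I did not pass, but the call of Qars depends on the probe set and that of Yars on the fit. The class II calls of Farsa and Aars were lost without some single arrays. Among the mitochondrial genes, 4 of 7 of class II rose and 5 of 8 of class I. The difference between the classes was not tested.

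The mitochondrial synthetases that rose spanned a wide range of differences. Nars2, for asparagine, was at 5.68, 5.70, 5.56 and 6.21 in the knockout and 5.21, 4.98, 5.09 and 5.32 in wild type. Knockout replicate 4 stood above the other knockout arrays, and the groups did not overlap. Nars2 rose by 0.64 (SE 0.13, limma adjusted p = 0.00288), and by 0.50 without knockout replicate 4, below the 0.59 of Iars2 in that fit. Its second, dimmer probe set differed by 0.11 and did not pass, and the mean of both rose by 0.37. Iars2, for isoleucine, was at 7.66, 7.70, 7.83 and 7.73 in the knockout and at 7.11, 7.14, 7.10 and 7.21 in wild type. It rose by 0.59 with a small error (SE 0.05, adjusted p = 1.54e-05), the lowest adjusted p of all 32 members, and its other probe set was called higher by 0.34.

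Tars2, for threonine, was at 6.63, 6.71, 6.75 and 7.05 in the knockout and at 6.34, 6.10, 6.19 and 6.37 in wild type, a rise of 0.53 (SE 0.09, limma adjusted p = 0.00123). Its single probe set carries the suffix for possible binding to other transcripts, as does that of Fars2. Fars2, for phenylalanine, was at 5.34, 5.84, 5.79 and 5.37 in the knockout and at 5.34, 5.0, 5.22 and 5.08 in wild type. Its knockout arrays fell into a high and a low pair, and the lowest of them lay just under the highest wild-type array. Fars2 rose by 0.42 (SE 0.12, adjusted p = 0.0211), a call lost without knockout replicates 2 and 3 and without wild-type replicates 2 and 4 (adjusted p from 0.0557 to 0.0634).

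Wars2, for tryptophan, was at 5.52, 5.63, 5.39 and 5.26 in the knockout and at 5.10, 4.97, 4.96 and 5.10 in wild type, and rose by 0.41 (SE 0.08, limma adjusted p = 0.00184). Its other probe set was called higher by 0.29. Lars2, for leucine, was at 8.24, 8.23, 8.22 and 8.43 in the knockout and at 7.88, 7.90, 7.89 and 7.81 in wild type, and rose by 0.41 (SE 0.06, adjusted p = 0.000247). The cysteine enzyme Cars2 rose by 0.31, the histidine enzyme Hars2 by 0.25 and the arginine enzyme Rars2 by 0.23 (adjusted p = 0.00445, 0.0240 and 0.00851). The annotated spans of Hars and Hars2 overlap at their ends. The Hars2 call was lost without knockout replicates 1 and 2 and without wild-type replicate 2 (adjusted p from 0.0562 to 0.0646). With the mean of its 2 probe sets Cars2 differed by 0.12 (adjusted p = 0.0637).

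Sars2, Vars2, Ears2, Aars2, Mars2 and Pars2 did not pass, with differences of 0.16, 0.12, 0.11, 0.11, 0.06 and -0.03. Vars2, for valine, differed without overlap between the groups (limma adjusted p = 0.102). Mars2 was dim, at 3.72 in the knockout and 3.66 in wild type, under the median of all probe sets, and low signals are compressed by this processing. Sars2 lay at 4.65 in the knockout and 4.49 in wild type, near that median. On leaving out 1 array, Sars2 passed without knockout replicate 1 (adjusted p = 0.0469) and Aars2 without knockout replicate 2 (adjusted p = 0.0252). Ears2 puts glutamate on the mitochondrial transfer RNA for glutamine, and an amidotransferase then converts it to glutamine. Of the 3 amidotransferase genes, named after their values were seen, Qrsl1 rose by 0.40, Gatb rose by 0.42 and Gatc differed by 0.02 and did not pass.

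For 14 pairs of a cytosolic and a mitochondrial enzyme serving the same amino acid, the responses were compared within arrays. Each value was the cytosolic minus the mitochondrial signal on an array, set between genotypes by a 2-sided exact permutation test. With 4 arrays per genotype that test cannot give a p below 0.0286. After Benjamini-Hochberg adjustment over the pairs 0 of 14 passed, while 4 did at an unadjusted p of 0.05. A pair at that floor can pass the adjustment only if many other pairs reach the floor too. The count of 0 therefore does not show that the paired enzymes responded alike. Eprs serves in 2 of the pairs and Fars2 in another 2. The cytosolic difference was the larger in 9 pairs and the mitochondrial in 5.

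The 4 pairs whose arrays did not overlap between genotypes went both ways. Wars and Wars2 differed by -0.05 and 0.41, so that the cytosolic minus mitochondrial signal was lower in the knockout by a difference of -0.46 (SE 0.11, exact permutation p = 0.0286, adjusted p = 0.1). Eprs differed by 0.40, against -0.03 for Pars2 and 0.11 for Ears2, gaps of 0.43 (SE 0.09) and 0.30 (SE 0.07) with the same p and adjusted p. Rars and Rars2 differed by 0.44 and 0.23, a gap of 0.20 (SE 0.07, exact permutation p = 0.0286, adjusted p = 0.1). Iars and Iars2 had the opposite sign, at -0.22 (SE 0.07, exact permutation p = 0.0571, adjusted p = 0.133). With the mean of each gene's probe sets that gap was -0.03, and under cyclic loess it was -0.25 without overlap (exact permutation p = 0.0286, adjusted p = 0.0667). Farsb and Fars2 differed by a gap of 0.03 (SE 0.21), and the error there is too large to say whether they moved alike.

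**Figure D3:**
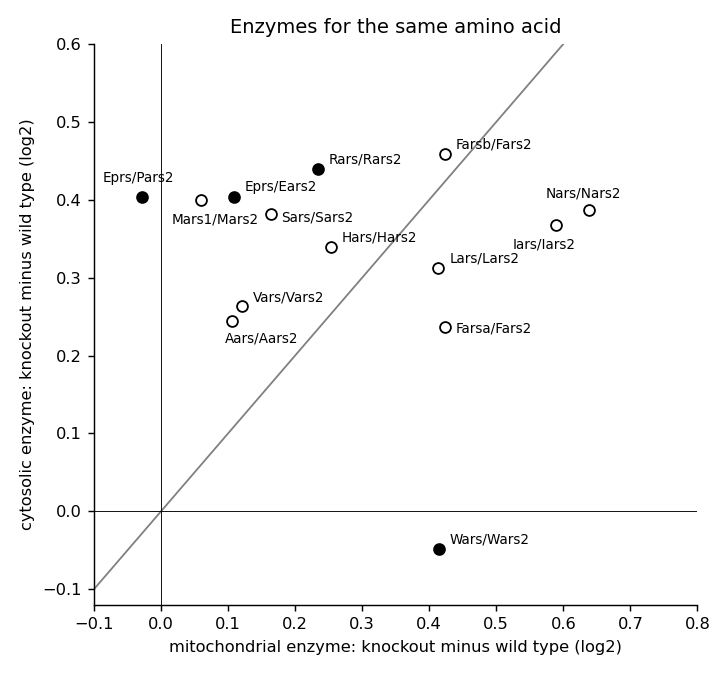
Difference (log2, knockout minus wild type) of the cytosolic enzyme against that of the mitochondrial enzyme for the same amino acid, 14 pairs, with the line of equal differences. Filled points are the 4 pairs whose cytosolic minus mitochondrial signal did not overlap between the 4 knockout and 4 wild-type arrays. Wars/Wars2 lies at -0.05 against 0.41, and Eprs/Pars2 at 0.40 against -0.03.

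Besides the brightest probe set of each gene, the arrays held 25 further probe sets of 16 synthetase genes. Of these, 9 were called higher and 0 lower, where 15.0% of all probe sets with 1 symbol were called higher. The 9 were all among the 17 whose mean reached the median of all probe sets in at least 1 genotype, and of the 8 dimmer probe sets 0 were called. Eprs had 2 further probe sets called higher, by 0.46 and 0.37. Iars had one at 0.49, Sars one at 0.41 and Farsb one at 0.35. A second probe set of Aars differed by 0.26 and did not pass (limma adjusted p = 0.124 over all probe sets).

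**Figure D4:**
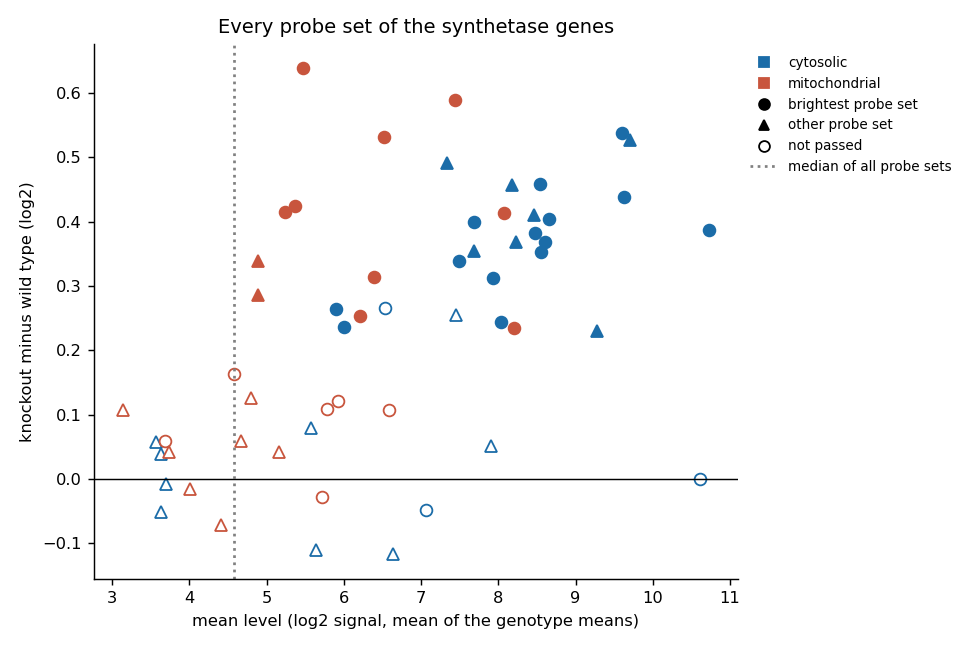
Difference (log2, knockout minus wild type) against mean log2 level for every probe set with a synthetase symbol, circles for the brightest of a gene and triangles for the others. Filled symbols passed an adjusted p of 0.05 over all probe sets, and the dotted line is the median of all probe sets, 4.58. No filled symbol lies below zero or left of the dotted line.

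Knockout replicate 4 was the highest knockout array for 16 of 17 cytosolic synthetases and for 6 of 15 mitochondrial ones. Wild-type replicate 3 was the lowest wild-type array for 10 of 17 cytosolic synthetases. Among the knockout arrays, replicate 4 also had the highest mean level of crypt and proliferation genes, 8.39 against 8.19 to 8.23. It had the lowest of mature enterocyte genes, 9.43 against 9.53 to 9.67, and of smooth muscle genes, 8.33 against 8.52 to 8.59. Its T and B lymphocyte means were the highest, 5.75 and 6.55. In wild type, replicate 4 was highest in cytosolic synthetases (8.12) and in crypt and proliferation genes (8.06). Wild-type replicate 1 was lowest in crypt and proliferation genes (7.95) but stood at 8.11 in cytosolic synthetases. A link between these lists and the synthetase level per array was not tested. Without knockout replicate 4, 12 of 17 cytosolic and 9 of 15 mitochondrial synthetases rose. The spiked hybridization controls were dimmest in knockout replicates 3 and 4 and wild-type replicate 2. When those 3 arrays were left out, 9 of 17 cytosolic and 8 of 15 mitochondrial synthetases rose and 0 fell, with 3493 genes called in all where 5134 were called with all arrays. Mars1, Iars, Vars, Aars, Farsa and Fars2 no longer passed in that fit (limma adjusted p from 0.0555 to 0.147). Their differences there were 0.36, 0.28, 0.23, 0.21, 0.19 and 0.38, beside 0.40, 0.37, 0.26, 0.24, 0.24 and 0.42 with all arrays.

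RefSeq promoters (GRCm38.p6) were listed for 24 of the 32 members, 17 of which rose. They are the 250 bases before the transcript start that the promoter table uses, which for some members, Aars among them, lies inside the gene's annotated span and not at its first base. These stretches were searched on both strands for the C/EBP-ATF response element bound by ATF4 (TGATGNAA), the E-box bound by MYC and related factors (CACGTG), the nuclear respiratory factor 1 site (GCGCA followed by its reverse complement) and the antioxidant response element core (TGACNNNGC), a choice made with the differences known. The response element was found in 2 of 24 members (8.33%) and in 3.91% of 27025 genes. The E-box was found in 3 of 24 (12.5%) and in 6.86% of all, the antioxidant core in 4 of 24 (16.7%) and in 11.5% of all, and the nuclear respiratory factor 1 site in 0 of 24 and in 0.877% of all. These matches describe letters only, and most members that rose held none of the 4 motifs.

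The matches of the first 2 motifs are shown because all 4 genes that held them rose. As 17 of the 24 members rose, this choice by outcome says nothing about the motifs. The antioxidant core was held by Aars, Aars2, Lars2 and Mars1, of which Aars2 did not pass. In each sequence 20 bases stand on each side with the motif in capitals. Aars lies on the plus strand, with its response element, reversed, 112 bases before the start used (chr8:111033710-111033757) and its E-box 146 bases before it (chr8:111033676-111033721). Gars, on the plus strand, held a reversed element 30 bases before the start (chr6:55037951-55037998). The E-boxes of Farsb (minus strand, chr1:78488911-78488956) and Iars (plus strand, chr13:49682041-49682086) began 39 and 69 bases before the start.
Aars response element: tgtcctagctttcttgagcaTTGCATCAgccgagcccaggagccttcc
Gars response element: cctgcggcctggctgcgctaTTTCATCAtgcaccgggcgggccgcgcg
Aars E-box: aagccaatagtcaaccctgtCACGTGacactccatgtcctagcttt
Farsb E-box: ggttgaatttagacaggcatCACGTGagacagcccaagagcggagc
Iars E-box: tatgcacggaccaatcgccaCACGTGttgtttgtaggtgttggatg

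Genes whose products work beside the synthetases were called in 1 direction. Among 15 measured partners there were 9 that rose, 0 that fell and 6 that did not pass, where 17.1% of all genes and 26.5% of the brighter genes were called higher. Their median difference was 0.27, beside 0.01 for all genes. Ptrhd1, a peptidyl-tRNA hydrolase domain protein, rose by 0.63, Aarsd1, an editing protein that removes wrongly attached amino acids from alanine transfer RNA, by 0.54, and Pstk, a kinase of the selenocysteine pathway, by 0.46. The scaffold Aimp1 of the multisynthetase complex rose by 0.36 (limma adjusted p = 0.000153). The other scaffolds, named after their values were seen, were Eef1e1, which rose by 0.37, and Aimp2, which differed by 0.03 and did not pass.

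Of 19 genes that process or export transfer RNA, 13 rose, 0 fell and 6 did not pass (median 0.28), beside the same 17.1% of all genes and 26.5% of the brighter genes. Mto1, which modifies mitochondrial transfer RNAs, rose by 0.52, the ribonuclease P subunit Pop5 by 0.44, and Trmt10c and Hsd17b10 of the mitochondrial ribonuclease P by 0.42 and 0.32. Of 8 genes that bring charged transfer RNA to the cytosolic ribosome or act in elongation and termination there, 5 rose and 0 fell. Their median difference was 0.29, where the same 17.1% of all genes and 26.5% of the brighter genes were called higher. Eef1d rose by 0.57, Eif5a by 0.53, the release factor Gspt1 by 0.53 and Eef1g by 0.33. Of 7 mitochondrial translation factors, 7 rose (median 0.52, beside the same shares), with Gfm1 at 0.93, Tufm at 0.88, Tsfm at 0.68 and Mtif2 at 0.31.

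The ATF4 list moved in both directions. Of 27 measured, 8 rose, 4 fell and 15 did not pass; their median difference was 0.07, where 17.1% of all genes were called higher and 12.9% lower. Psat1 and Psph of serine synthesis rose by 1.06 and 0.62, and Cth, which makes cysteine, rose by 0.85. Slc3a2, the heavy chain of amino acid exchangers, fell by 0.47. Named after their values were seen, the asparagine synthetase Asns rose by 0.74 and Atf4 itself fell by 0.27 (limma adjusted p = 0.0117). Of 10 pancreatic acinar markers, Cela1 rose by 1.17, and the other 9 differed by -0.19 to 0.16 and did not pass. The mean level of that list, Cela1 included, was 4.66 to 4.69 on knockout arrays and 4.52 to 4.55 on wild-type arrays.

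**Figure D5:**
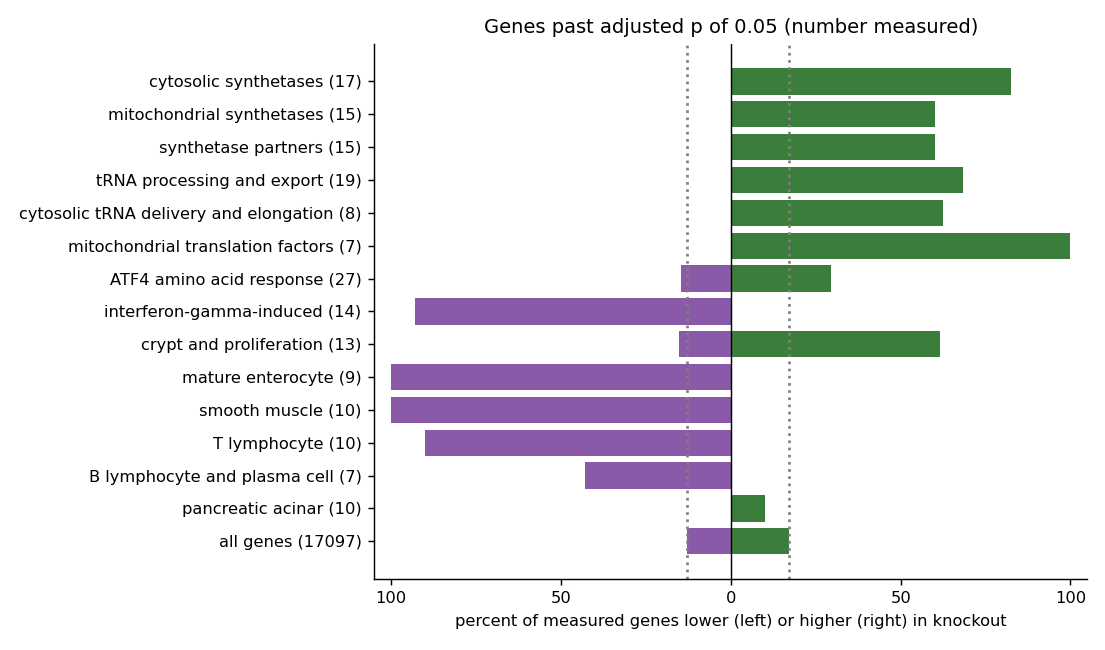
Percent of measured genes called higher (right, green) or lower (left, purple) in knockout than in wild-type ileum at an adjusted p of 0.05, for the synthetases and the other lists, with the number measured in brackets. The ileal enterocyte list is not drawn. Dotted lines mark 17.1% and 12.9%, the shares of all 17097 genes called higher and lower. The synthetase and translation lists have no bar on the left.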

How the data were processed

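The deposited log2 signals come from RMA, as the submitters' processing notes name it; software version and settings are not given in the sources used here. Per the labels' protocols, labelling started with 250 ng of total RNA and in vitro transcription toward the 3' end. RMA compresses low signals, the table has no detection calls, and 4 arrays per genotype limit the precision. Of 45141 probe sets, 28898 had 1 gene symbol, 551 several and 15588 none listed, besides 104 controls. Symbols were updated through Entrez identifiers for 28689 probe sets. The genotype comparison used lmFit and eBayes of limma 3.58.1 (R 4.3.3), 2-sided, over 17097 genes without a filter. Pairs were tested with scipy 1.17.1. The code of the fit was tried on simulated data in which far fewer genes were changed, all upward. That trial does not bear on the calls reported here. The replicate numbers were not taken to pair samples. The members, lists, pairs and motifs were chosen with earlier results of these data known. Values in every sample are given for up to 8 cytosolic and up to 6 mitochondrial members with the largest rise or fall past the threshold, and for Wars, Gars and Kars. Up to 4 genes of each other list, those with the smallest adjusted p, are named.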

Additional observations from a re-analysis of the deposited data

Results flagged for a closer look

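Among the synthetases and the other genes named by rule, 156 groups of 4 arrays were examined for an array far from the other 3 of its genotype, and 8 were found. Chance flags about 1 in 20 such groups. Nars was lowest in knockout replicate 3, at 10.82 beside 10.94 to 10.95. Kars was highest in knockout replicate 4, at 8.81 beside 8.69 to 8.70. Lars2 was highest in knockout replicate 4, at 8.43 beside 8.22 to 8.24, and lowest in wild-type replicate 4, at 7.81 beside 7.88 to 7.90. Aars2 was lowest in knockout replicate 2, at 6.49 beside 6.68 to 6.69. Of the other genes, Mtif2 was lowest in wild-type replicate 3 (7.49 beside 7.59 to 7.62). Psmb8 was highest in knockout replicate 4 (9.17 beside 8.47 to 8.56), and Mcm6 was highest in wild-type replicate 4 (8.74 beside 8.53 to 8.56).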

How the results depend on the processing

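Over 15 alternatives, no member was called lower. Of the 23 members called, 14 were called under every alternative that tested them and 9 were lost under at least 1. Of the 9 not called, 3 were called under at least 1. With the 3 arrays of dimmest hybridization controls left out, 9 cytosolic synthetases rose, where 14 did with all arrays, and 3493 genes were called where 5134 were. That fit has fewer arrays, and any other cause was not tested. On leaving out 1 array, the counts ran from 12 to 14 cytosolic and from 7 to 9 mitochondrial synthetases higher, and from 4366 to 4945 genes called. With the replicate number as a block, 15 cytosolic and 8 mitochondrial synthetases rose, Yars being gained and Hars2 lost (adjusted p = 0.0344 and 0.0525). The deviations of same-numbered samples correlated at 0.22, -0.05, 0.11 and 0.16. Pairing was to be accepted only with every value over 0.1, and knockout replicate 2 correlated best with wild-type replicate 3 (0.18), so the numbers were not taken as pairs. The sign-flip test of the enzyme pairs by number cannot go below 0.125. Cyclic loess lost Aars and Rars2 (adjusted p = 0.0986 and 0.0581). Averaging all probe sets of a gene turned the sign of the Farsb/Fars2 and Nars/Nars2 gaps, and cyclic loess that of Farsb/Fars2. Without overlap between genotypes were 6 pairs under cyclic loess and 5 with averaged probe sets, where 4 were in the comparison reported.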
